A study of Mus musculus with 28 samples.

Results

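The regulators of the epithelial-mesenchymal transition (EMT) described here are 10 genes, taken by symbol from 50600 genes counted in sorted mouse mammary cells: the EMT-inducing transcription factors Snai1, Snai2, Zeb1, Zeb2 and Twist1, the epithelial factors Grhl2, Ovol1 and Esrp1, and the cadherins Cdh1 and Cdh2. All 10 were found in the counts. The 28 libraries came from 7 adult female PdgfrαCre R26mTmG mice on the C57BL/6 background, 10 to 12 weeks old. In these mice Cre under Pdgfra control turns a cell and all of its descendants from tdTomato+ to GFP+ at any stage of life, so GFP+ marks past or present use of Pdgfra and not its current level. All 7 mice carried both alleles. Of the mice, 4 were untreated and 3 carried a 14-day pellet of 0.14 mg estradiol and 14 mg progesterone (E+P). Each mouse gave 4 libraries, GFP+ (eGFP in the labels) and tdTomato+ cells of the CD49f- EpCAM- stromal gate and of the CD49f low EpCAM+ luminal gate, after removal of CD31+, CD45+ and Ter119+ cells. The groups therefore number 8, with n = 4 untreated and n = 3 E+P mice in each pair, and a mouse keeps its number in all 4 of its libraries. The question put to the 10 genes was whether the GFP+ cells of either gate hold levels between those of luminal and stromal cells.

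EMT is the programme by which epithelial cells loosen their junctions and take on the shape and motility of mesenchymal cells, and its reversal, the mesenchymal-epithelial transition, builds epithelium. The SNAIL (Snai1, Snai2), ZEB (Zeb1, Zeb2) and TWIST factors drive the first direction. SNAIL and ZEB proteins bind E2-box motifs and repress Cdh1, which encodes E-cadherin, the adhesion protein of epithelial junctions. Grhl2 and Ovol1 encode transcription factors that hold the epithelial state, in part by restraining the ZEB genes, and Esrp1 encodes a splicing regulator that favours epithelial isoforms. Cdh2 encodes N-cadherin, the adhesion protein of many mesenchymal, muscle and neural cells, and a gain of N-cadherin with a loss of E-cadherin is known as the cadherin switch. The microRNAs of the miR-200 family close the circuit, since they silence Zeb1 and Zeb2 and are themselves repressed by ZEB proteins. In the mammary gland the luminal cells that line the ducts are E-cadherin-rich, whereas fibroblasts and adipocyte progenitors surround them.

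The miR-200 sequences are shown because these microRNAs are the known partners of Zeb1 and Zeb2, and their genes were read only in the luminal libraries. Each mature sequence runs 5′ to 3′ with the seed, bases 2 to 8, in capitals. The sequences are from RefSeq (GRCm38.p6) and all lie on the minus strand, miR-200b, miR-200a and miR-429 on chromosome 4 and miR-200c and miR-141 on chromosome 6.
miR-200b-3p (chr4:156055685-156055706): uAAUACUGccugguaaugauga
miR-200c-3p (chr6:124718324-124718346): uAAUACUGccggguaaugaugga
miR-429-3p (chr4:156053916-156053937): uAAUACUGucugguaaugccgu
miR-200a-3p (chr4:156054911-156054932): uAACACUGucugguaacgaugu
miR-141-3p (chr6:124717917-124717938): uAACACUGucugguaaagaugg
The first 3 share the seed AAUACUG and the last 2 share AACACUG. The libraries counted reads over the hairpin genes and not mature microRNAs, which this protocol does not capture as such. Over the 14 luminal libraries Mir200c had 92 reads (in 13 libraries), Mir200a 68 (in 13), Mir200b 32 (in 11), Mir141 4 (in 3) and Mir429 0. In the 14 stromal libraries none of the 5 genes had a read among 231749898, against 223203359 reads in the luminal libraries. Mir205, the gene of another ZEB-silencing microRNA, had 0 reads in either gate. Only Mir200c passed the filter on low counts, and it was lower in stroma by a log2 difference of -5.52 (adjusted p = 1.4e-05, edgeR's quasi-likelihood test with Benjamini-Hochberg adjustment), a value that depends on how the fit treats the stromal zeros.

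The promoter of Snai1 is shown because Snai1 was the EMT-inducing factor that changed with hormone in luminal cells. The window holds 250 bases before and 50 after the start (chr2:167537945-167538244, plus strand, GRCm38.p6, from RefSeq), in lower case with an E2-box in capitals.
Snai1 promoter: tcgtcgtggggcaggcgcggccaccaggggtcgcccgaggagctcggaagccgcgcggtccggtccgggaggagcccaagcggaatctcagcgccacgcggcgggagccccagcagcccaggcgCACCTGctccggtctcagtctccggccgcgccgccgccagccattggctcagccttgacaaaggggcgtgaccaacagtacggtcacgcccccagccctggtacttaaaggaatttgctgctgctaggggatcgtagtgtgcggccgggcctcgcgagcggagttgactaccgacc
The search covered CACCTG with its other strand CAGGTG (the E2-box) and AACCGG with its other strand CCGGTT (the core of the GRHL site). The E2-box match begins 126 bases before the start (chr2:167538069-167538074). Of 32851 promoter windows of 300 bases, 20.2% hold an E2-box and 6.83% hold the GRHL core, so a match in 1 window is common. Promoter windows were found for Snai1, Twist1 and Zeb2, and those of Twist1 (1 window) and Zeb2 (4 windows) hold neither motif.

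Library totals ran from 8623383 to 24583803 reads. CPM scale counts to a common library total, adjusted by edgeR's TMM factors. On this scale 3 reads, the most that a count of 0 allows, correspond to 0.116 to 0.302 CPM. This floor covers counting error only, whereas the intervals of log2 differences come from the fit and include the spread between libraries. Within groups the log2 CPM of pairs of libraries correlated at r = 0.917 to 0.984, and no pair was identical. The 7 luminal markers summed to 3883 to 7167 CPM in luminal libraries. The 8 fibroblast and adipocyte progenitor markers summed to 32470 to 61750 CPM in GFP+ stroma, with all 8 above 1 CPM, against 1818 to 6615 CPM in tdTomato+ stroma. The tdTomato+ stromal libraries also held more of the markers of other cells than their GFP+ counterparts: pericyte and smooth muscle genes at 6629 to 9503 CPM (133.4 to 306.4 in GFP+ stroma), skeletal muscle genes at 1949 to 18160 CPM (0.643 to 4.79) and the 4 satellite cell genes at 186.6 to 310.7 CPM (0 to 0.9746). Each library holds many cells, and fewer cells of a type cannot be told apart from less RNA per cell.

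Stroma and luminal cells held opposite sets of the 10 genes. All 5 EMT-inducing factors and Cdh2 were higher in stroma, and Grhl2, Ovol1, Esrp1 and Cdh1 were higher in luminal cells. Between libraries of the same mouse and reporter the direction held in all 14 pairs, except for Snai1 in 1, the tdTomato+ cells of E+P mouse 2. At an adjusted p under 0.01, 6 of the 10 genes rose and 4 fell from luminal to stroma, beside 63.5% of the 19569 genes tested. Over all genes 33.0% rose and 30.5% fell. The gates were themselves set on EpCAM and CD49f, so a separation of epithelial from stromal genes was built into the sort. The comparison describes how far the 10 genes differ between the gates.

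**Figure D1:**
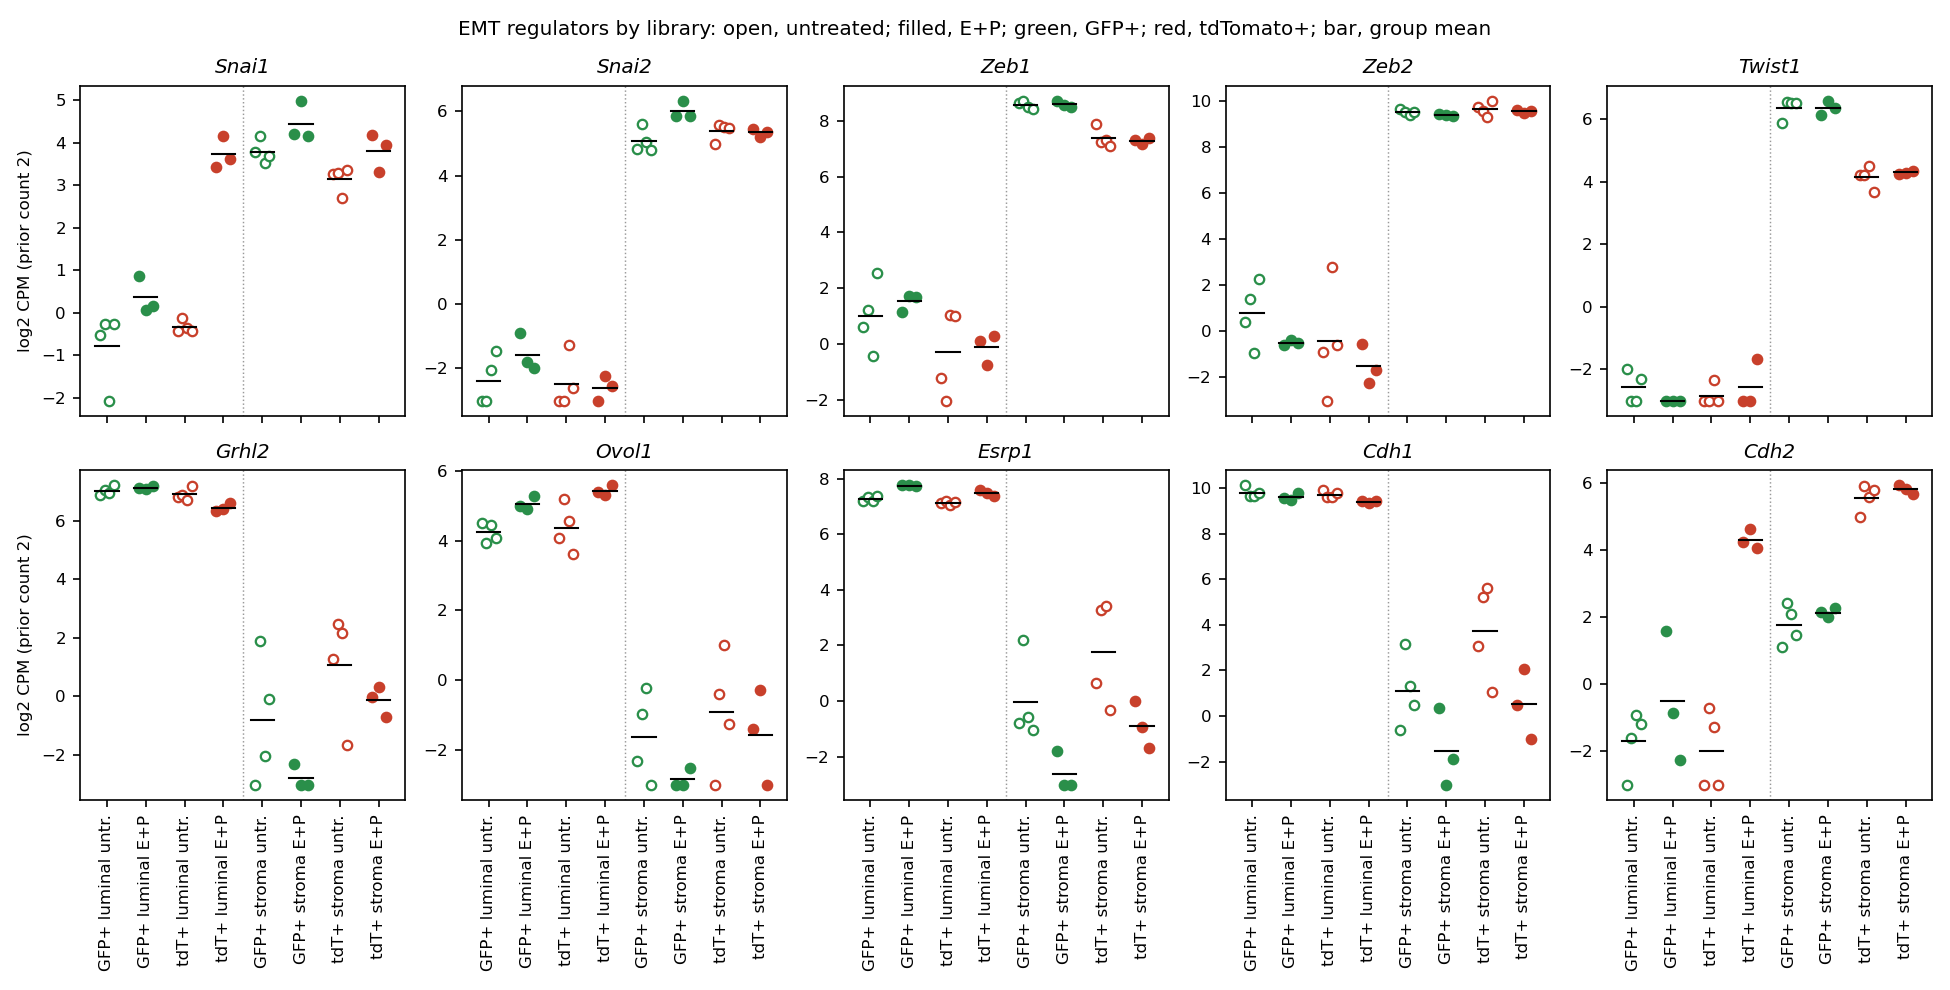
Log2 CPM (prior count of 2) of each of the 10 genes in the 28 libraries, grouped by gate, reporter and treatment, each point 1 library and each bar a group mean (n = 4 untreated, 3 E+P; open untreated, filled E+P). The 5 EMT-inducing factors and Cdh2 have higher means in stroma than in luminal cells, except that in E+P tdTomato+ luminal libraries Snai1 and Cdh2 reach 10.7 to 17.8 and 16.7 to 24.59 CPM.

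Zeb2 was the most abundant EMT-inducing factor by length-scaled level (RPKM, CPM per kilobase of merged exons) in tdTomato+ stroma, at 41.3 ± 8.6 RPKM untreated and 38.3 ± 2.0 RPKM with E+P (SD, n = 4 and 3). In GFP+ stroma it stood beside Zeb1 and below Twist1: Twist1 reached 51.4 ± 10.4 RPKM, Zeb2 37.3 ± 2.7 RPKM and Zeb1 36.9 ± 3.2 RPKM in untreated mice (SD, n = 4). Snai2 was at 17.0 ± 4.7 RPKM and Snai1 at 8.54 ± 1.66 RPKM in the same libraries. Snai1 was therefore the least abundant of the 5 per length there. The order of Zeb2, Zeb1 and Twist1 depends on the length scaling, over merged exons of 19942, 10266 and 1628 bases. By mean CPM in untreated GFP+ stroma, Zeb2 (743.0) stood above Zeb1 (378.8) and Twist1 (83.69). In luminal cells the order was Cdh1, Esrp1, Grhl2 and Ovol1, at 196 ± 32, 24.5 ± 1.7, 15.0 ± 1.6 and 5.46 ± 1.06 RPKM in untreated GFP+ cells (SD, n = 4).

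The luminal floor of the EMT-inducing factors was low and differed between them. Twist1 had 8 reads in all 14 luminal libraries together, 0 to 4 in a library, against 131 to 1814 in a stromal one. Snai2 had 25 luminal reads, 0 to 6 in a library, against 299 to 1515. Their fitted log2 differences between stroma and luminal cells, 10.38 ± 0.27 for Twist1 and 8.81 ± 0.26 for Snai2 (SE), rest on these few luminal reads and depend on how the fit treats zeros. Against E+P GFP+ luminal cells, where Twist1 had no read in any of 3 libraries, E+P GFP+ stroma was at least 406-fold higher when the luminal level is set to 3 reads per library. Zeb1 and Zeb2 had log2 differences of 7.30 ± 0.31 and 9.76 ± 0.50 between stroma and luminal cells (adjusted p = 8.8e-16 and 5.0e-14, edgeR's quasi-likelihood test with Benjamini-Hochberg adjustment). Snai1 differed least, by 3.20 ± 0.18 (adjusted p = 1.2e-14).

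Zeb1 and Zeb2 were not silent in every luminal library. Zeb1 measured 1.40, 2.22, 0.629 and 5.74 CPM in untreated GFP+ luminal mice 1 to 4, and 0.310, 0.122, 1.95 and 1.90 CPM in the tdTomato+ luminal cells of the same mice. Zeb2 measured 1.21, 2.52, 0.400 and 4.80 CPM in the first group and 0.413, 0, 6.80 and 0.543 CPM in the second. The highest Zeb2 value, in untreated tdTomato+ luminal mouse 3, stood beside the highest sum of fibroblast markers in that group, 75.8 CPM against 7.72 to 19.1 CPM. Untreated GFP+ luminal mouse 4 held the highest Zeb1 and Zeb2 of its group beside the lowest fibroblast sum, 36.2 CPM against 50.4 to 111.3 CPM. No value of Zeb1 or Zeb2 in a luminal library exceeded 1.67% of that in the stroma of the same mouse and reporter.

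The epithelial genes were read at low levels in stroma, and unevenly among mice. Cdh1 measured 8.28, 36.6, 48.2 and 1.95 CPM in untreated tdTomato+ stroma of mice 1 to 4, which was 0.874%, 4.73%, 6.29% and 0.223% of the tdTomato+ luminal level in the same mice. Krt8, a luminal keratin, ran at 0.922%, 4.36%, 6.33% and 0.425% in the same order, and Epcam, the surface protein on which the gate was set, at 1.47%, 4.56%, 6.91% and 0.327%. Esrp1 followed the same order of mice, at 1.03%, 6.55%, 7.97% and 0.471%. In untreated GFP+ stroma, mouse 2 was the highest for Cdh1 (1.11%, against 0.0476% to 0.298%), Esrp1 (2.72%, against 0.222% to 0.377%) and Krt8 (1.62%, against 0.102% to 0.341%). With E+P the stromal level of Cdh1 was at most 0.151% of the luminal one in GFP+ and 0.618% in tdTomato+ cells. Cdh1 and Esrp1 thus shared their highest mice with Krt8 and Epcam across these untreated libraries. The luminal keratin Krt19 did too, but ran higher in untreated GFP+ stroma, at 1.67%, 5.56%, 1.44% and 1.33%. The luminal marker Cldn7 departed in untreated tdTomato+ stroma, at 2.23%, 1.83%, 3.07% and 0%. Grhl2 (2.03%, 4.60%, 4.13% and 0.133% in tdTomato+ stroma) and Ovol1 (0%, 1.72%, 7.91% and 2.42%) followed Krt8 and Epcam less closely, Ovol1 from at most 28 reads. The part of other cells in the stromal levels of Cdh1, Esrp1, Grhl2 and Ovol1 was not tested.

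**Figure D2:**
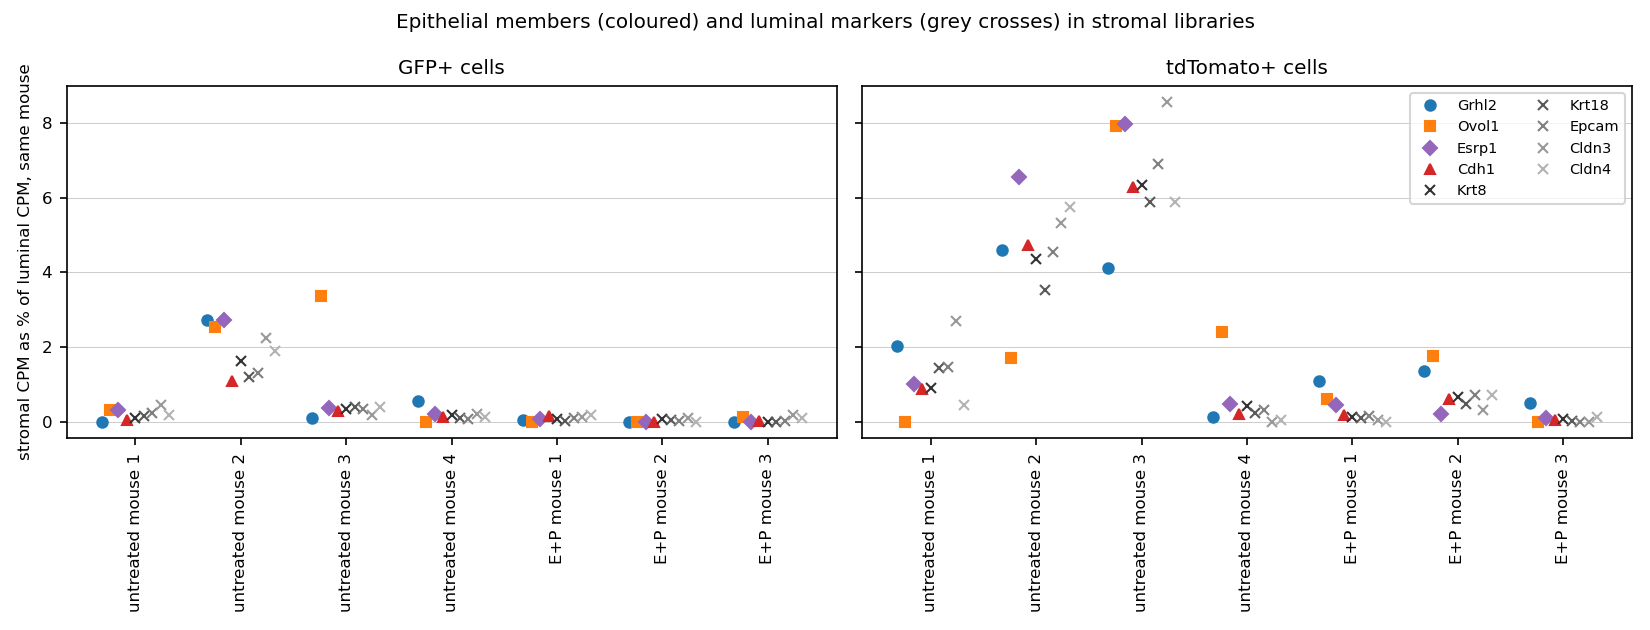
Stromal level of Cdh1, Esrp1, Grhl2 and Ovol1 and of the luminal markers Krt8, Krt18, Epcam, Cldn3 and Cldn4 as a percentage of the luminal level in the same mouse and reporter, each point 1 mouse. The untreated tdTomato+ stroma of mice 2 and 3 is highest for Cdh1 (4.73% and 6.29%) and Krt8 (4.36% and 6.33%).

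Snai1 rose with E+P in tdTomato+ luminal cells. It measured 0.620, 0.791, 0.651 and 0.621 CPM in the 4 untreated libraries and 10.7, 17.8 and 12.1 CPM in the 3 E+P libraries. The groups did not overlap, and the ratio of means was 20.2. The log2 difference was 4.35 ± 0.40 (SE; adjusted p = 7.2e-06, edgeR's quasi-likelihood test with Benjamini-Hochberg adjustment), rank 68 among 16538 genes. In GFP+ luminal cells Snai1 measured 0.571, 0.705, 0.114 and 0.708 CPM untreated and 1.70, 0.916 and 1.00 CPM with E+P. All 3 E+P libraries were above all 4 untreated ones here too, but the difference of 1.23 ± 0.44 on the log2 scale did not pass (adjusted p = 0.0743).

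Cdh2 rose in the same cells. It was at 0, 0.487, 0.289 and 0 CPM in untreated tdTomato+ luminal libraries, that is at 8 reads or fewer, and at 19.1, 24.59 and 16.7 CPM with E+P, from 238 to 575 reads. The fitted log2 difference was 6.87 ± 1.07 (adjusted p = 7.0e-04), and it depends on the 2 untreated libraries at 0. In GFP+ luminal cells the untreated libraries read 0, 0.201, 0.400 and 0.315 CPM and the E+P libraries 2.86, 0.431 and 0.0833 CPM, which overlap (log2 difference 2.15 ± 1.15, adjusted p = 0.236). The highest of these, E+P GFP+ luminal mouse 1, was also the highest of its group for Snai1 and for Cdh3, the P-cadherin gene, at 9.87 CPM against 2.10 and 1.21 CPM.

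**Figure D3:**
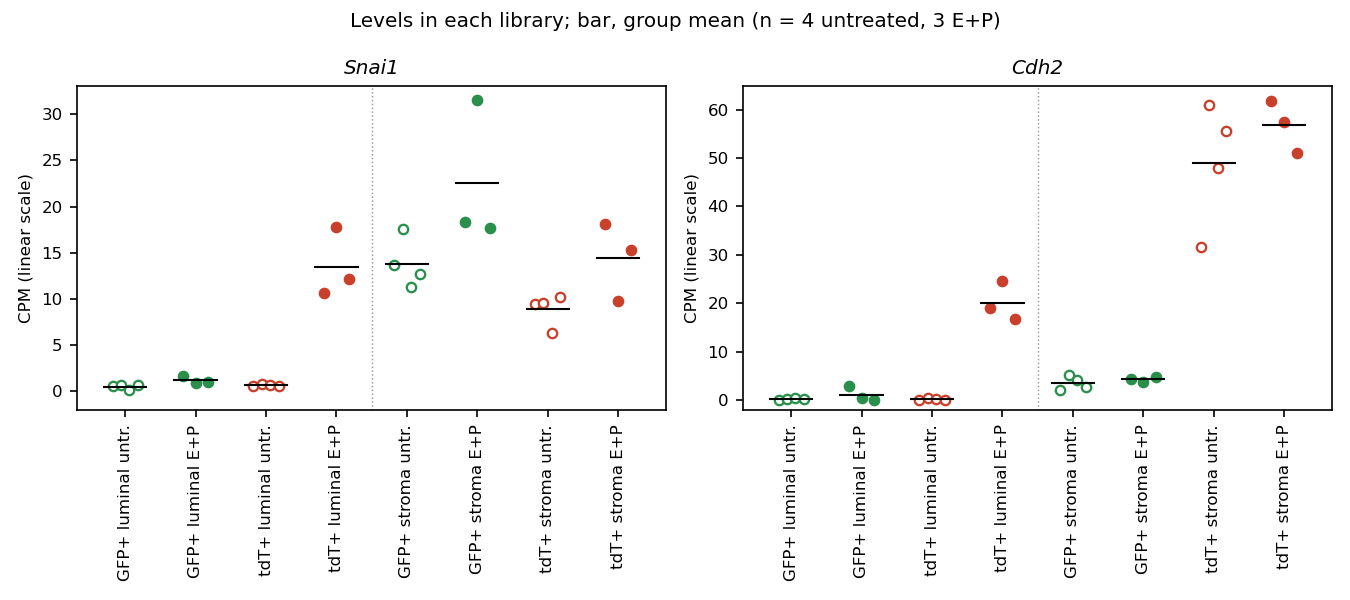
CPM of Snai1 and Cdh2 in each library of the 8 groups on a linear axis, each point 1 library and each bar a group mean (n = 4 untreated, 3 E+P). E+P tdTomato+ luminal libraries (Snai1 10.7 to 17.8 CPM, Cdh2 16.7 to 24.59 CPM) lie within the stromal range of Snai1 (6.38 to 31.5 CPM) and between the GFP+ and tdTomato+ stromal values of Cdh2.

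Esrp1 also rose with E+P, slightly and in both luminal subsets. It went from 139, 146, 132 and 145 CPM in the tdTomato+ luminal libraries of untreated mice to 192, 179 and 167 CPM, and from 145 to 165 CPM in untreated GFP+ cells to 218, 216 and 210.4 CPM. The groups did not overlap in either subset, with log2 differences of 0.38 ± 0.08 (adjusted p = 0.00466) and 0.47 ± 0.08 (adjusted p = 0.00281, edgeR's quasi-likelihood test with Benjamini-Hochberg adjustment). Neither call was stable. That of tdTomato+ cells was lost in 10 of 16 alternatives: without any one of 6 mice (adjusted p = 0.0103 to 0.0421, kept without untreated mouse 2), with libraries scaled by their totals alone (log2 difference 0.16, adjusted p = 0.151), with no filter on low counts (0.0132), with only the groups compared in the fit (0.0195) and with all 28 libraries in it (0.717). That of GFP+ cells was lost without E+P mouse 1 or 2 or untreated mouse 1 or 3 (adjusted p = 0.0103 to 0.022), with only the groups compared (0.0131) and with all 28 libraries (0.675). Ovol1 was at 12.1 to 36.8 CPM in tdTomato+ luminal cells of untreated mice and at 41.9, 39.4 and 48.1 CPM with E+P (log2 difference 0.99 ± 0.28, adjusted p = 0.021), and at 15.2 to 22.7 and 29.8 to 38.5 CPM in GFP+ cells (0.81 ± 0.29, adjusted p = 0.0759). Neither Ovol1 difference passed by edgeR with all mice. That of tdTomato+ cells passed by DESeq2 (adjusted p = 0.00542), by limma-voom (0.0052) and without untreated mouse 2 (1.34, adjusted p = 0.000996). The E+P libraries were above the untreated ones in all 12 pairs of mice in each subset.

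In tdTomato+ luminal cells 3 of the 8 genes tested thus rose with E+P and 0 fell, beside 14.1% of the 16538 genes tested (7.63% up and 6.44% down). In GFP+ luminal cells 1 rose and 0 fell, beside 5.96% (3.17% up and 2.78% down). Snai2 and Twist1 were too low in luminal cells to be tested. Grhl2 was at 112, 118, 104.5 and 146 CPM without hormone in tdTomato+ luminal cells and at 79.7, 83.9 and 97.3 CPM with E+P, below in all 12 pairs of mice (log2 difference -0.44 ± 0.12, adjusted p = 0.0151, not called by edgeR but called by DESeq2, 0.00661, and with library totals alone, 0.00131). Cdh1 was also lower with E+P in all 12 pairs of mice, at a mean of 672.8 CPM against 839.1 CPM in untreated tdTomato+ luminal cells. Its 7 values there ran from 656 to 947 CPM. The difference of -0.29 with a 95% interval from -0.56 to -0.02 did not pass (adjusted p = 0.102 by edgeR). Zeb1 measured 0.962, 0.470 and 1.09 CPM and Zeb2 0.561, 0.0855 and 0.190 CPM in E+P tdTomato+ luminal cells, within the untreated ranges. Of the 3 EMT-inducing factors that could be tested there, Snai1 was thus the 1 that rose.

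The difference of the hormone change between the subsets was tested directly. For Snai1 it was -3.12 ± 0.60 on the log2 scale, the change being smaller in GFP+ cells (adjusted p = 0.00751), and it was the 1 gene called of 8 tested, beside 2.27% of all genes (0.786% up and 1.49% down). With the mouse as a block its adjusted p was 0.0162, and it also lost the call when any one of 6 of the 7 mice was left out (adjusted p = 0.0115 to 0.0804). The mice concerned are E+P mice 1, 2 and 3 and untreated mice 1, 2 and 4. For Cdh2 the difference was -4.72 ± 1.74 (adjusted p = 0.128). For Esrp1 it was 0.09, with a 95% interval from -0.17 to 0.35 (adjusted p = 0.721).

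In E+P tdTomato+ luminal cells Snai1 lay within the stromal range. It was at 59.0%, 79.2% and 181% of the tdTomato+ stromal value of the same mouse, as the lowest, median and highest of 3 mice, against 6.08% to 10.2% in the 4 untreated mice. Cdh2 was at 30.9%, 32.7% and 42.8%, against 0% to 0.800% untreated. For the other factors the same E+P libraries stood at a median of 0.116% (Snai2), 0.603% (Zeb1), 0.0247% (Zeb2) and 0% (Twist1) of stroma. Fibroblast genes in them were also low, at a median of 0.155% for Col1a1, 0.0367% for Col3a1 and 0.168% for the mesenchymal filament gene Vim, whereas Dcn, a matrix proteoglycan, was at 17.4% and Pdgfra at 9.40%. Of the 8 fibroblast markers 2 (Dcn and Pdgfra) reached 1 CPM in this group, where the list summed to 27.3 to 57.5 CPM, against 5 of 8 and 7.72 to 75.8 CPM in the untreated group. The shares above are of E+P tdTomato+ stroma, where the 8 markers summed to 1818 to 2344 CPM. In E+P GFP+ stroma they summed to 49950 to 60980 CPM.

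In a comparison chosen after these values were seen, E+P tdTomato+ stroma was set against E+P tdTomato+ luminal cells. Of the 10 genes 4 were higher and 4 lower in stroma, beside 45.2% of all genes (20.5% lower and the rest higher). Snai1 differed by 0.09, with a 95% interval from -0.58 to 0.75 (adjusted p = 0.838), and Cdh2 by 1.49 ± 0.57 (adjusted p = 0.0286), so that neither passed by edgeR, while Cdh2 passed by limma-voom (adjusted p = 1.7e-05). Against E+P GFP+ stroma, also chosen afterwards, 9 of the 10 differed, 4 higher and 5 lower in stroma, beside 40.8% of all genes (22.3% and 18.5%). Snai1 did not pass there (0.73 ± 0.32, adjusted p = 0.0602), and Cdh2 was lower in GFP+ stroma than in E+P tdTomato+ luminal cells, by 2.23 ± 0.60 on the log2 scale (log2 difference -2.23, adjusted p = 0.00342). That call was lost without E+P mouse 2 (-1.98, adjusted p = 0.0558).

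Markers of other epithelial types moved in the same luminal libraries. With E+P, Trp63, a basal cell transcription factor, went from 0.258, 1.46, 0.868 and 2.02 CPM to 24.5, 18.7 and 23.3 CPM in tdTomato+ luminal cells, and Cdh3 from 0.155, 4.51, 0.940 and 1.47 CPM to 62.5, 41.4 and 52.9 CPM. The basal keratins Krt5 and Krt14 were at 0.26 ± 0.27 and 2.20 ± 0.56 CPM in these E+P libraries (SD, n = 3), against 0.47 ± 0.14 and 1.98 ± 1.48 CPM untreated (SD, n = 4). The basal list as a whole (6 of 7 genes at 1 CPM or more in both groups) summed to 11.3 to 42.6 CPM untreated and 39.1 to 66.6 CPM with E+P. This sum includes the Trp63 values above, so it is not separate from them, and a sum without Trp63 was not taken. The hormone-sensing luminal list fell from a sum of 3801 to 5679 CPM to one of 1779 to 2904 CPM, without overlap and not tested as a sum, while the luminal list stayed at 6501 to 7167 CPM. The luminal progenitor list also fell, from a sum of 224.3 to 884.2 CPM to one of 118.9 to 203.0 CPM, again without overlap and not tested. The 4 satellite cell genes summed to 0 to 0.342 CPM in the E+P tdTomato+ luminal libraries, with Myf5 at 0 in each, where Cdh2 was at 16.7 to 24.59 CPM. The part of a change in cell composition in the Snai1 and Cdh2 values was not tested.

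Snai1 and Grhl2 differed between GFP+ and tdTomato+ luminal cells. Averaged over both treatments 1 of the 8 genes tested was higher in GFP+ cells and 1 lower, beside 34.7% of all genes (15.7% higher and 19.0% lower). Snai1 was lower in GFP+ cells, with a log2 difference of -1.98 ± 0.30 (adjusted p = 0.000102), and Grhl2 was higher by 0.36 ± 0.08 (adjusted p = 0.00274, in 7 of 7 mice). The Grhl2 call was lost without E+P mouse 2 (adjusted p = 0.015) and in a fit of all 28 libraries (0.452). In untreated mice alone 0 of 8 were called, beside 15.4% of all genes, and 0 had an unadjusted p under 0.05 (edgeR). With E+P, Snai1 (-3.54 ± 0.43) and Cdh2 (-4.29 ± 1.00) were lower and Grhl2 (0.63 ± 0.13) higher in GFP+ cells, 3 of 8 beside 25.4% of all genes, 11.3% higher and 14.1% lower (adjusted p = 3.5e-05, 0.00471 and 0.00147). Leaving out E+P mouse 2 took the Cdh2 call (adjusted p = 0.0709) and the Grhl2 call (0.0179), E+P mouse 1 that of Grhl2 (0.0129) and E+P mouse 3 that of Cdh2 (0.0311). The Cdh2 call was also lost by DESeq2 (0.011) and with no filter on low counts (0.0187), and the Grhl2 call with all 28 libraries in the fit (0.404).

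The genes that stand for the ends of the programme did not pass between the luminal subsets. Cdh1 was 0.13 higher in GFP+ than in tdTomato+ luminal cells on the log2 scale, with a 95% interval from -0.06 to 0.32 (adjusted p = 0.26), and higher in 7 of 7 mice. Esrp1 was likewise higher in GFP+ luminal cells in 7 of 7 mice, and Ovol1 in 2. Esrp1 was not called in the main fit but passed in 3 of 15 alternatives, with log2 differences of 0.16 to 0.32 over them all. Zeb1 was higher by 1.45, with a wide interval from 0.22 to 2.68 (adjusted p = 0.0507, and 0.00884 with all 28 libraries in the fit), at levels of 0.629 to 5.74 CPM in GFP+ and 0.122 to 1.95 CPM in tdTomato+ cells that compare with 138 to 417 CPM in stroma. Twist1 had reads in 2 of the 7 GFP+ luminal libraries (0.127 and 0.0787 CPM) and Snai2 in 5 (0.114 to 0.408 CPM), from 1 to 6 reads each.

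**Figure D4:**
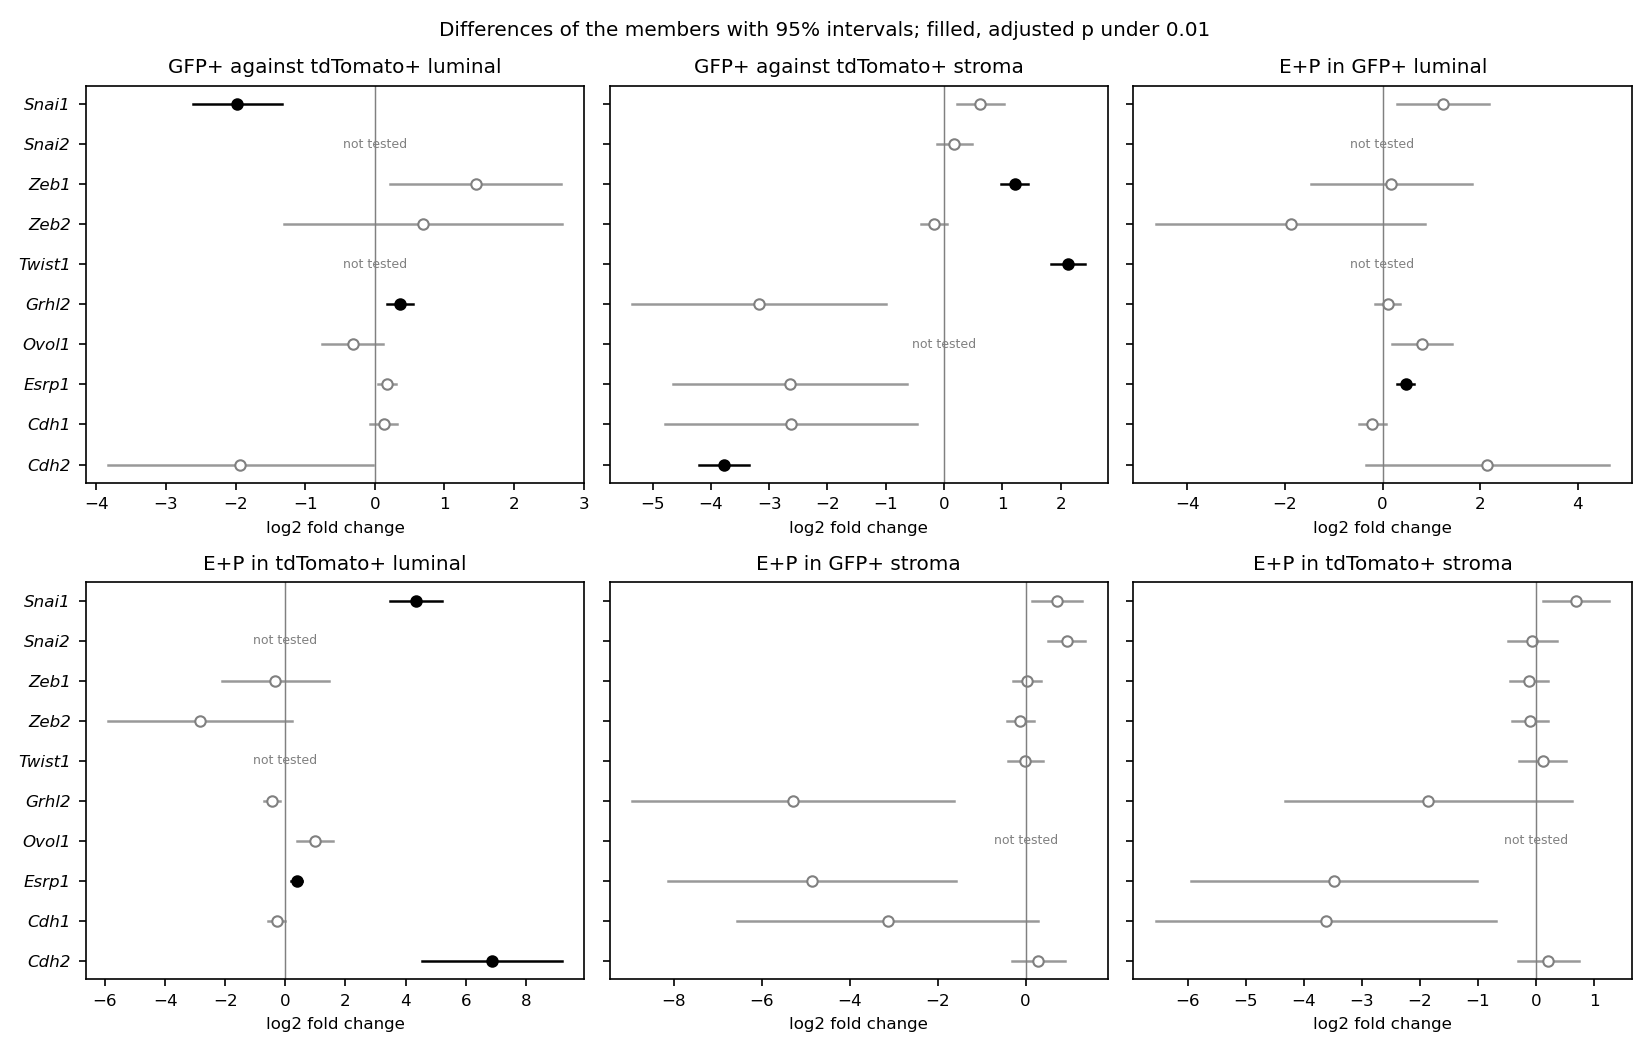
Log2 differences of the 10 genes with 95% intervals in the comparisons of GFP+ with tdTomato+ cells and of E+P with untreated cells, filled where the adjusted p is under 0.01. Snai1 and Cdh2 stand out with E+P in tdTomato+ luminal cells (4.35 and 6.87), and Twist1 (2.13), Zeb1 (1.21) and Cdh2 (-3.77) between GFP+ and tdTomato+ stroma.

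GFP+ and tdTomato+ stroma differed in Twist1, Zeb1 and Cdh2. Twist1 measured 58.5, 93.5, 91.2 and 91.6 CPM in untreated and 69.7, 95.8 and 82.8 CPM in E+P GFP+ stroma, against 18.5, 18.6, 22.5 and 12.7 CPM and 18.9, 19.4 and 20.2 CPM in tdTomato+ stroma. Every GFP+ library was above every tdTomato+ library, with a ratio of means of 4.45 and a log2 difference of 2.13 ± 0.14 (adjusted p = 9.9e-10, edgeR's quasi-likelihood test with Benjamini-Hochberg adjustment). Zeb1 was at 344 to 417 CPM in GFP+ and 138 to 236 CPM in tdTomato+ stroma, again without overlap (1.21 ± 0.11, adjusted p = 6.5e-08). Zeb2, its paralogue, differed by -0.18, with a 95% interval from -0.40 to 0.04 (adjusted p = 0.163), and Snai2 by 0.17, with an interval from -0.12 to 0.47 (adjusted p = 0.32).

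Cdh2 went the other way. It was at 2.05, 5.20, 4.15 and 2.66 CPM in untreated and 4.30, 3.86 and 4.73 CPM in E+P GFP+ stroma, and at 31.6, 60.9, 47.9 and 55.5 CPM and 61.8, 57.5 and 51.0 CPM in tdTomato+ stroma. The ranges lie far apart, and GFP+ stroma was lower by 3.77 ± 0.21 on the log2 scale (log2 difference -3.77, adjusted p = 1.2e-10). Beside it, the satellite cell, skeletal muscle and pericyte lists were high in all 7 tdTomato+ stromal libraries and low in all 7 GFP+ ones, as given above, and the part of these cells in the Cdh2 level was not tested. Of the 9 other cadherin genes tested 7 were lower in GFP+ stroma and 1 higher, beside 21.3% and 20.6% of all genes. The lower ones included the muscle cadherin Cdh15 (0.0858 ± 0.109 against 27.5 ± 7.2 CPM, SD, n = 7 each), Cdh6 (0.782 ± 0.389 against 45.2 ± 14.1 CPM) and the endothelial cadherin Cdh5 (1.77 ± 1.41 against 44.5 ± 35.7 CPM). Cdh11, the cadherin of fibroblasts, was higher in GFP+ stroma, at 475 ± 160 against 36.7 ± 14.8 CPM.

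In all, 2 of 9 genes tested were higher and 1 lower in GFP+ than in tdTomato+ stroma, beside 42.0% of all genes (20.6% higher and 21.3% lower). The same 3 genes were called in untreated mice alone, beside 28.5% (13.5% higher and 14.9% lower), and in E+P mice alone, beside 14.2% higher and 13.9% lower. In a fit of all 28 libraries the Zeb1 difference missed the threshold within each treatment (adjusted p = 0.0264 and 0.0309). Snai1 exceeded its tdTomato+ level in the GFP+ stroma of all 7 mice but missed the threshold (0.62 ± 0.19, adjusted p = 0.0106), which it passed by limma-voom (0.0099), with no filter on low counts (0.00302) and without E+P mouse 1 (0.0073). Grhl2, Esrp1 and Cdh1 had differences of -3.17, -2.64 and -2.63 that did not pass (adjusted p = 0.0158, 0.0269 and 0.0415), next to luminal marker sums of 4.14 to 83.5 CPM in GFP+ and 3.49 to 456.8 CPM in tdTomato+ stroma. With the mouse as a block that of Esrp1 passed (adjusted p = 0.00334). These 3 differences passed with no filter on low counts, and without untreated mouse 2 those of Grhl2 and Esrp1 passed (adjusted p = 0.00448 and 0.0049). Ovol1 was too low in stroma to be tested.

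With E+P no member passed in stroma. In GFP+ stroma 0 of 9 were called, beside 0.231% of all genes (41 of 17783 by edgeR, 1429 at an unadjusted p under 0.05), and in tdTomato+ stroma 0 of 9, beside 0.124% (22 genes, 2780 unadjusted). At an unadjusted p under 0.05 there were 4 members in GFP+ and 3 in tdTomato+ stroma. By DESeq2 there was 1 in GFP+ stroma, Snai2, and 0 in tdTomato+ stroma. Snai2 went from 28.6, 48.2, 33.2 and 27.4 CPM to 58.1, 80.0 and 58.2 CPM in GFP+ stroma, without overlap (0.94 ± 0.20, adjusted p = 0.0359), and was at 31.7 to 47.4 and 36.9 to 43.9 CPM in tdTomato+ stroma (-0.06 ± 0.20, adjusted p = 0.912). It passed without untreated mouse 2 (adjusted p = 0.00834). The difference between the 2 changes was 1.00 ± 0.28 (adjusted p = 0.194), and no member passed that test (0 of 9, beside 0.0450% of all genes, 8 by edgeR and 1858 at an unadjusted p under 0.05). Twist1 and Zeb1 changed by -0.01 (95% interval -0.40 to 0.39) and 0.03 (-0.30 to 0.35) in GFP+ stroma. The epithelial genes Grhl2, Esrp1 and Cdh1 were lower with E+P in GFP+ stroma by fitted differences of -5.28, -4.86 and -3.14 (adjusted p = 0.271, 0.253 and 0.668), where the luminal marker sum was 18.5 to 83.5 CPM untreated and 4.14 to 5.12 CPM with E+P.

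Intermediate levels were sought by a rule applied to all genes. A GFP+ group counted as intermediate where it differed at an adjusted p under 0.01 from tdTomato+ cells of its own gate and treatment, and also from GFP+ cells of the other gate, with the first difference pointing towards the other gate. In untreated GFP+ luminal cells 0 of the 8 genes tested met the rule (4.00% of all genes did), and in E+P GFP+ luminal cells 0 of 8 (3.97%). In untreated GFP+ stroma 1 of 9 met it, Cdh2 (3.34% of all genes), and in E+P GFP+ stroma 0 of 9 (3.16%). Cdh2 in untreated GFP+ stroma was -3.81 from tdTomato+ stroma and 3.88 above GFP+ luminal cells on the log2 scale, 49.5% of the way between them (adjusted p = 1.0e-08 and 0.000175). The GFP+ luminal end was near the floor, at a mean of 0.229 CPM. The 3.88 and the 49.5% thus depend on how the fit treats low counts. The tdTomato+ stromal end held high muscle, satellite cell and pericyte genes, as given above, and their part in its Cdh2 level was not tested. With E+P the second difference was 2.06 ± 0.68 and missed the threshold (adjusted p = 0.0146), but the rule was met with the mouse as a block, with limma-voom, at a threshold of 0.05 and without E+P mouse 1.

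Next, all libraries of the GFP+ group had to lie between those of both other groups, with no test. Ovol1, Snai2 and Zeb1 qualified in E+P GFP+ luminal cells (3 genes) and Cdh2 and Zeb2 in E+P GFP+ stroma (2). Beside them stood 13.4% of the 16538 and 11.6% of the 17740 genes that passed the filter on low counts. Snai2 did not pass it in luminal cells and is outside the 16538. Its place between the groups rests on 3 to 6 reads in each GFP+ library against 0 to 2 in the tdTomato+ ones. For Zeb1 the 3 GFP+ luminal libraries, at 2.11, 3.18 and 3.12 CPM, were 19.4% of the way to GFP+ stroma on the log2 scale, and the tdTomato+ ones were at 0.470 to 1.09 CPM. In untreated GFP+ luminal cells 0 of the 10 genes qualified, beside 7.41% of the genes that passed the filter, which leave out Snai2 and Twist1. In untreated GFP+ stroma Cdh2 did, beside 4.27%. 

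The balance of the cadherins was taken as log2 of Cdh1 over Cdh2 per kilobase, with 0.5 added to each count. It was 13.04 ± 1.95 in untreated and 11.4 ± 2.5 in E+P GFP+ luminal cells, and 13.9 ± 2.6 in untreated tdTomato+ luminal cells (SD, n = 4 and 3). In E+P tdTomato+ luminal cells it was 5.90 ± 0.31, from 5.56 to 6.17 in the 3 libraries, so that Cdh1 still exceeded Cdh2 there. In stroma it was 0.09 ± 1.11 and -3.80 ± 2.66 in GFP+ cells and -1.04 ± 2.12 and -4.64 ± 1.60 in tdTomato+ cells, untreated and E+P. The E+P tdTomato+ luminal libraries lay below every other luminal library, the nearest of which was at 8.84 in E+P GFP+ luminal cells, and above every stromal one, the nearest of which was at 1.59.

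**Figure D5:**
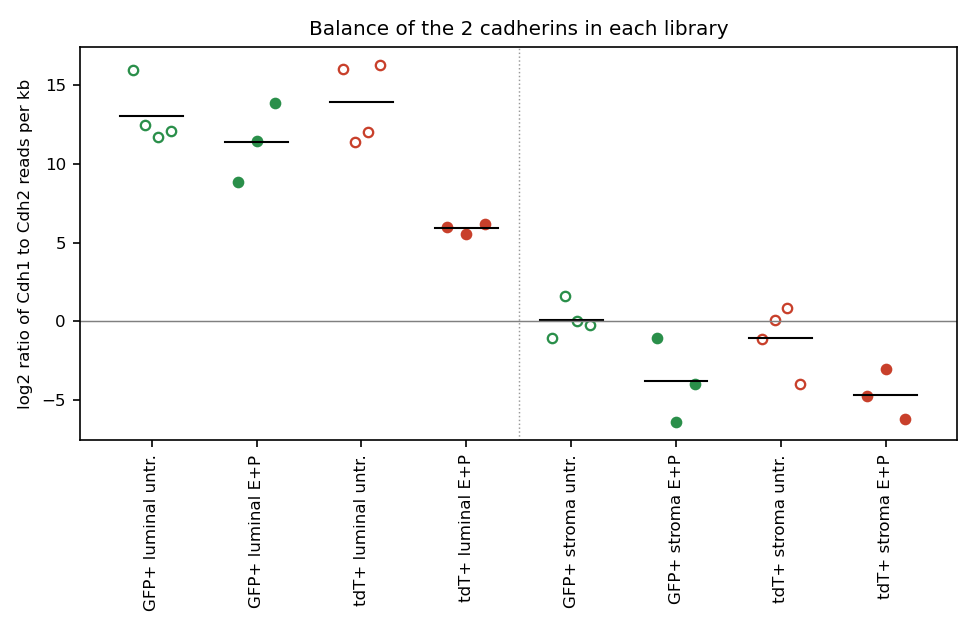
Log2 ratio of Cdh1 to Cdh2 per kilobase in each library of the 8 groups, with 0.5 added to each count and bars at the group means. E+P tdTomato+ luminal libraries (5.56 to 6.17) lie between the other luminal libraries (8.84 to 16.3) and stroma (-6.38 to 1.59).

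The other EMT-promoting factors took both directions between the gates. Of 13 such transcription factors 8 were higher and 4 lower in stroma (12 tested, median log2 difference 4.04), beside 33.0% and 30.5% of all genes. The higher ones included Prrx1 (435 ± 72 against 0.588 ± 1.12 CPM, SD, n = 14 each) and Twist2, and the lower ones Sox9 (25.3 ± 21.7 against 399 ± 137 CPM), Sox4 and Foxc1. Of 12 further epithelial factors 11 were lower in stroma and 1 higher (median -6.65), and all 16 epithelial junction and apical genes were lower (median -7.60), while all 16 mesenchymal effector genes such as Lox and Fbn1 were higher (median 8.23). The junction list includes Epcam, on which the gates were set. The median over all genes was 0.02. The median of the 10 members, which take both directions by choice, was 3.55. All 4 catenins that bind cadherins were lower in stroma, Jup by 3.02 on the log2 scale (log2 difference -3.02) and the other 3 with log2 differences of -0.75 to -0.999.

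With E+P in tdTomato+ luminal cells, where Snai1 and Cdh2 rose, 0 of the 14 mesenchymal effector genes tested were called (median -0.86). Of the 7 further EMT-promoting factors tested 1 rose, Sox4, from 136 ± 51 to 422 ± 64 CPM (SD, n = 4 and 3; log2 difference 1.66 ± 0.26, adjusted p = 0.000659). Of the 16 junction and apical genes 5 rose and 1 fell (median 0.30), where 7.63% of all genes rose and 6.44% fell. Among them Spint2, an inhibitor of membrane proteases, went from 111 ± 13 to 261 ± 54 CPM and the claudin gene Cldn3 from 115 ± 7 to 223 ± 12 CPM. Of the 12 epithelial factors 2 rose and 2 fell, with Grhl3 at 4.03 ± 1.61 and 11.3 ± 0.2 CPM, Klf5 at 120.3 ± 15.0 and 200.5 ± 18.6 CPM, Rbm47 at 168 ± 26 and 103 ± 2 CPM and Grhl1 at 94.3 ± 12.3 and 60.5 ± 3.1 CPM. Of the other cadherins tested 1 of 6 rose, Cdh3. Over all genes the median change was -0.05.

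In GFP+ luminal cells E+P gave 0 calls among the same 14 mesenchymal effectors (median -1.14) and the 7 EMT-promoting factors (median -0.42), and 2 junction genes fell, Dsp (397 ± 130 to 167 ± 27 CPM) and Spint1 (91.8 ± 9.9 to 64.4 ± 1.3 CPM), where 3.17% of all genes rose and 2.78% fell. Sox4 narrowly missed the threshold there (log2 difference 1.17 ± 0.26, adjusted p = 0.01002 by edgeR). It went from 155.1 to 246.8 CPM untreated to 384.3 to 483.4 CPM with E+P, without overlap. The difference of its change between the luminal subsets did not pass (-0.49 ± 0.37, adjusted p = 0.478 by edgeR's interaction test). Of the epithelial factors Foxa1 (63.1 ± 42.6 to 10.9 ± 6.4 CPM) and Elf3 (106.6 ± 14.9 to 49.6 ± 1.7 CPM) fell. The other lists gave no call there, with 0 of 6 cadherins and 0 of 4 catenins. Between GFP+ and tdTomato+ luminal cells 4 epithelial factors were higher and 6 lower of 12, beside 15.7% and 19.0% of all genes, with Elf5 (185 ± 43 against 35.2 ± 27.8 CPM) and Ehf (769 ± 259 against 173 ± 51 CPM) higher and Foxa1 (40.7 ± 41.2 against 248 ± 85 CPM) lower in GFP+ cells (SD, n = 7 each). Elf5 is a luminal progenitor factor and Foxa1 a hormone-sensing one, and the progenitor list summed to 1392 to 3175 CPM in GFP+ against 118.9 to 884.2 CPM in tdTomato+ luminal cells. Of the mesenchymal effectors 3 were higher and 1 lower of 14 tested, and of 7 EMT-promoting factors 1 was higher, Foxc1 (54.9 ± 12.8 against 14.7 ± 6.7 CPM).

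Between GFP+ and tdTomato+ stroma 14 mesenchymal effector genes were higher and 1 lower of 16 (median 2.63), beside 20.6% and 21.3% of all genes. The higher ones included Mmp2, Fn1, Col1a1 and Col1a2. Of 11 EMT-promoting factors tested 3 were higher, with Prrx2 at 12.04 ± 7.13 against 0.703 ± 0.457 CPM, and 4 lower, with Foxc1 at 3.08 ± 1.096 against 20.2 ± 4.0 CPM. Twist1 and Zeb1 were thus higher beside the collagen genes, and Cdh2 lower. With E+P none of the genes of the 6 other protein-coding lists was called in either stromal subset, by edgeR. Over all genes only 0.231% were called in GFP+ and 0.124% in tdTomato+ stroma, so few calls were possible in lists of this size.

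Each gene's closest matches in pattern were the 3 genes with the highest Pearson r of log2 CPM over the 28 libraries, among 11399 genes with a mean of at least 10 CPM in a group. The libraries share mice and gates, and most of such an r reflects the difference between the gates. Cdh1 and Esrp1 were each among the other's closest (r = 0.990), with Krt8 (0.9905 and 0.988). Grhl2 was closest to Lad1 (0.986) and Ovol1 to the pseudogene Krt8-ps (0.980), which can share reads with Krt8. Zeb2 was closest to Sparcl1 (0.995), Zeb1 to Prex2 (0.989), Twist1 to Mrgprf (0.993) and Snai2 to B3galt1 (0.992). For the 2 members with high levels in E+P tdTomato+ luminal cells the closest were Col6a1 for Snai1 (0.961) and Slc2a3 for Cdh2 (0.984).

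The genes lie, in GRCm38 coordinates of GENCODE M21, at chr2:167538195-167542814 for Snai1 and chr8:106603351-106670246 for Cdh1, both on the plus strand, and at chr18:16588877-16809246 on the minus strand for Cdh2, and counts cover all annotated exons. Exons of Zeb1, Zeb2, Grhl2, Ovol1 and Esrp1 overlap genes on the opposite strand, and since the strand setting of the counting is not given in the sources used here, reads of such partners cannot be told apart from theirs. The largest partner by reads relative to its member was Gm16136, an antisense gene to Grhl2, with 3970 reads against 29711 over all libraries.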

How the data were processed

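RNA of 28 sorted populations from 7 mice was sequenced after rRNA depletion with a stranded low-input kit (2 ng RNA, 15 PCR cycles). The methods describe RNA from degraded to intact and a fragmentation time adapted to it. RNA quality is not given per library in the sources used here, so its part in differences between groups was not tested. The authors aligned reads with STAR 2.5.2a to GRCm38 with GENCODE genes and deposited raw counts per gene, without molecular identifiers. The GENCODE release and the strand setting of the counting are not given in the sources used here. Symbols and coordinates came from GENCODE M21, which held 50376 of the 50600 gene IDs. A count of 12360 genes was 0 in every library.

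Here edgeR 4.0.16 (R 4.3.3) was run on the counts as deposited: TMM scaling, filterByExpr, a robust quasi-likelihood fit and Benjamini-Hochberg adjustment over all genes tested, with a threshold of 0.01. Comparisons within a gate used its 14 libraries and those between gates all 28. SE was the log2 difference over the root of F, and intervals are 95%. CPM used library totals, from 8623383 to 24583803, multiplied by the TMM factors of the fit of all 28 libraries. Correlations used log2 CPM with a prior count of 2. Replicates are separate mice by the titles. The study's methods name linear regression with limma without its terms, and the main fit here has no block. Samples with the same mouse number deviated together weakly (mean r = 0.157 between luminal and 0.05 between stromal subsets, against -0.061 and -0.019 for different mice). The pairing itself comes from the titles. The pellet is described in the methods for wild-type mice.

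The 10 genes, the other gene lists and the tests were chosen with earlier results of these data known. Genes named from other lists were the up to 4 with the largest differences among those called on the same side in every mouse whose higher group averaged 10 CPM or more, and the 10 genes themselves are always named. Others named by value, among them Trp63, Sox4, Krt5, Krt14, Dcn and Vim, are list members chosen after their values were seen. A list gene that the naming rule selected is not reported here. The scripts were tested on simulated data. Alternatives were DESeq2 1.42.0 (size factors, Wald test), library size alone, limma 3.58.1 (voom), no low-count filter, a threshold of 0.05, the mouse as a block, other sets of libraries, and leaving out each mouse.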

Additional observations from a re-analysis of the deposited data

Results flagged for a closer look

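Of 40 groups of 4 libraries (each of the 10 genes in the untreated groups), 6 held a library apart from the other 3 by Dixon's criterion, and chance gives about 1 in 20. Snai1 was low in replicate 3 of untreated GFP+ luminal cells, at 0.114 CPM against 0.571 to 0.708 CPM, from 2 reads. It was also low in replicate 3 of untreated tdTomato+ stroma, at 6.38 CPM against 9.51 to 10.2 CPM. Snai2 was low in replicate 1 of untreated tdTomato+ stroma, at 31.7 CPM against 44.7 to 47.4 CPM. Twist1 had 1 read in replicate 3 of untreated tdTomato+ luminal cells (0.0723 CPM) and 0 in the other 3. In untreated GFP+ stroma, Twist1 was low in replicate 1, at 58.5 CPM against 91.2 to 93.5 CPM. Esrp1 was high in replicate 2 there, at 4.42 CPM against 0.367 to 0.549 CPM, beside the highest Cdh1 of that group (8.92 CPM).

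The change of Snai1 with E+P differed between GFP+ and tdTomato+ luminal cells with a log2 difference of -3.12 between the changes (edgeR's interaction test, adjusted p = 0.00751), with E+P above untreated in 12 of 12 pairs of mice in both subsets. This interaction call was lost in 8 of 15 alternatives.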

How the results depend on the processing

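Of 132 fitted differences of the 10 genes, 21 took either sign over the alternatives, and none of these was called under any setting. The calls of Snai1 and Cdh2 with E+P in tdTomato+ luminal cells held in all 16 alternatives (log2 4.09 to 4.48 and 6.33 to 8.04), as did those of Zeb1, Twist1 and Cdh2 between GFP+ and tdTomato+ stroma and of Snai1 between the luminal subsets in all 15. Elsewhere the number of the 10 genes called moved, and the cause was not tested. Between GFP+ and tdTomato+ stroma, where 3 were called, DESeq2 gave 5, no low-count filter 7, all 28 libraries 5, a threshold of 0.05 7, and leaving out a mouse 3 to 5. Within the stromal subsets with no filter it was 5 (untreated) and 7 (E+P) in place of 3, and 5 at 0.05 (E+P). With E+P in tdTomato+ luminal cells (3), DESeq2 and a threshold of 0.05 each gave 5, and leaving out a mouse 2 to 4. With E+P in GFP+ luminal cells (1), all 28 libraries and only the groups compared each gave 0, and leaving out a mouse 0 to 1. With E+P in GFP+ stroma (0), DESeq2 gave 1, no filter 4, a threshold of 0.05 1, and leaving out a mouse 0 to 1. In tdTomato+ stroma (0) no filter gave 2. Between the luminal subsets leaving out a mouse gave 1 to 2 (2 with all), and with E+P 1 to 3 (3 with all). The E+P GFP+ luminal count of genes between both ends was 3 with no test (0 with it). In E+P GFP+ stroma it was 0, and 1 with limma-voom, 1 at 0.05, 2 with no test and 0 to 1 without a mouse.

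With the replicate block, the luminal interaction had 0 of the 10 genes in place of 1 (Snai1, adjusted p = 0.0162), as it had with limma-voom (0, adjusted p = 0.0313) and without most mice (0 to 1), Esrp1 passed between the stromal subsets (0.00334), and E+P GFP+ stroma had 1 gene between both ends. The block changed no other call of the 10 genes.

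Scaling by library totals alone moved the median of all genes by -0.288 between stroma and luminal cells, 0.143 and 0.201 between the luminal subsets (all mice and E+P), -0.107 and -0.223 with E+P in GFP+ and tdTomato+ luminal cells, and 0.116 for the luminal interaction. The share of calls that were up went from 51.9% to 38.8%, from 45.3% to 60.8%, from 44.5% to 63.3%, from 53.3% to 36.0%, from 54.2% to 25.2% and from 34.6% to 55.2% in that order, and from 45.3% to 59.5% between the untreated luminal subsets.

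Counts of genes called over all genes ranged, leaving out mice and under other settings, from 169 to 2475 for E+P in GFP+ luminal cells (985), 1140 to 4444 in tdTomato+ luminal cells (2327), 16 to 459 in GFP+ stroma (41), 0 to 840 in tdTomato+ stroma (22), 33 to 1089 and 1 to 506 for the luminal (376) and stromal (8) interactions, 978 to 4974 and 1690 to 6499 between the untreated (2547) and E+P (4206) luminal subsets, and 3167 to 7107 between the E+P stromal subsets (4988). Depth limits the luminal values of Snai2 and Twist1 and the stromal values of Ovol1, which were too low to test.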
